A study of Mus musculus with 89 samples.

Results

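The 41 genes described here encode the DNA replication machinery that vertebrate cells switch on as they pass from G1 into S phase. They were taken from a list of symbols, with no measured value in the rule, but the list was chosen with earlier results of these data known. All 41 were found among the 24411 genes of the deposited count and TPM tables. Single cells came from the dissected dentate gyrus, the part of the hippocampus in which neural stem cells go on making neurons in adult life. All donors were homozygous Nestin:CFPnuc mice (B6.Cg-Tg(Nes-CFP)1Enik/J, labelled C57BL/6), in which the Nestin promoter drives a nuclear cyan fluorescent protein. Of the 89 cells, 48 were taken at 2 months of age and 41 at 4.5 months, and each was amplified with a full-length kit (SMART-Seq v4) and sequenced on its own. The deposited groups table puts 60 cells in a class called qNSC, 18 in aNSC and 11 in IPC, abbreviations that in this field usually stand for quiescent neural stem cells, activated neural stem cells and intermediate progenitor cells.

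The qNSC cells carry a further colour code, with 25 green, 26 red and 9 blue cells, whose meaning is not stated. The aNSC cells were split at 10 counts of Pdgfra, the receptor gene that marks oligodendrocyte precursors. This left 7 Pdgfra-high cells, with 531 to 3057 counts, and 11 Pdgfra-low cells, all with 0. By age the qNSC class held 32 cells of 2 months and 28 of 4.5 months, the Pdgfra-low aNSC 7 and 4, the Pdgfra-high aNSC 4 and 3, and the IPC 5 and 6. Of 10 stem cell markers, all but Nes reached 10 counts in 33 to 60 of the 60 qNSC and in 8 to 11 of the 11 Pdgfra-low aNSC, and Nes did so in 1 and 2. Of the same 10 stem cell markers the Pdgfra-high cells held only some. Aldoc, Fabp7 and Slc1a3 reached 10 counts in 7 of 7, Hes5 in 6, Sox2 in 4, Id4 in 1, and Hopx, Gfap, Sox9 and Nes in 0. Of the oligodendrocyte precursor markers other than Pdgfra, which the split used, Sox10, Olig1, Olig2, C1ql1, Neu4 and Lhfpl3 did so in 7 of 7 and Cspg4 in 5. By these markers the 7 cells resemble oligodendrocyte precursors, and aNSC is for them only the name of the deposited class. Of 8 progenitor markers, the IPC held Sox11, Mfap4 and Ccnd2 in 10 of 11 cells, Igfbpl1 in 9, Neurog2 in 8, Eomes in 7, Neurod4 in 3 and Tac2 in 1. Some markers were shared between classes: Ccnd2 reached 10 counts in 31 of 60 qNSC and Hopx in 7 of 11 IPC. Total counts ran from 234608 to 1896075 per cell.

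No label names an animal, so each age is 1 sample and no difference below has a test or a p-value. SDs are over cells, and 95% intervals (exact Clopper-Pearson for shares, exact Poisson for summed CPM, a gene's share of all counts scaled to 1e+06) cover counting error only, because reads copied by PCR do not each stand for a molecule. How classes and colours were assigned is not stated, and the assignment may have used these same genes, so class differences are descriptions. A gene is said to pass the size limit in a comparison when the groups differ by at least 1 in mean log2(CPM + 1) and by at least 2-fold in summed CPM in the same direction.

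Replication starts from origins that the origin recognition complex marks and that Cdc6 and Cdt1 load with the Mcm2 to Mcm7 helicase in G1. E2F factors induce many of these genes, kinases including cyclin E with its partner then activate the helicase together with Cdc45 and the GINS complex, and polymerases, clamp and ligase copy both strands while ribonucleotide reductase and thymidylate synthase supply the building blocks. In the adult dentate gyrus most stem cells are thought to rest outside the cycle, and most divisions to be made by their progenitor offspring.

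Few of these genes were detected in any one qNSC. At 10 counts or more, a qNSC held between 0 and 11 of the 41 genes, with a median of 4 (n = 60 cells). A Pdgfra-low aNSC held 1 to 34 with a median of 6 (n = 11), a Pdgfra-high aNSC 4 to 37 with a median of 11 (n = 7), and an IPC 7 to 41 with a median of 27 (n = 11). The groups overlap, but the cells do not fill the range evenly: the widest gap between neighbouring cells lies between 17 and 24 genes, and only 10 cells stand above it.

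**Figure D1:**
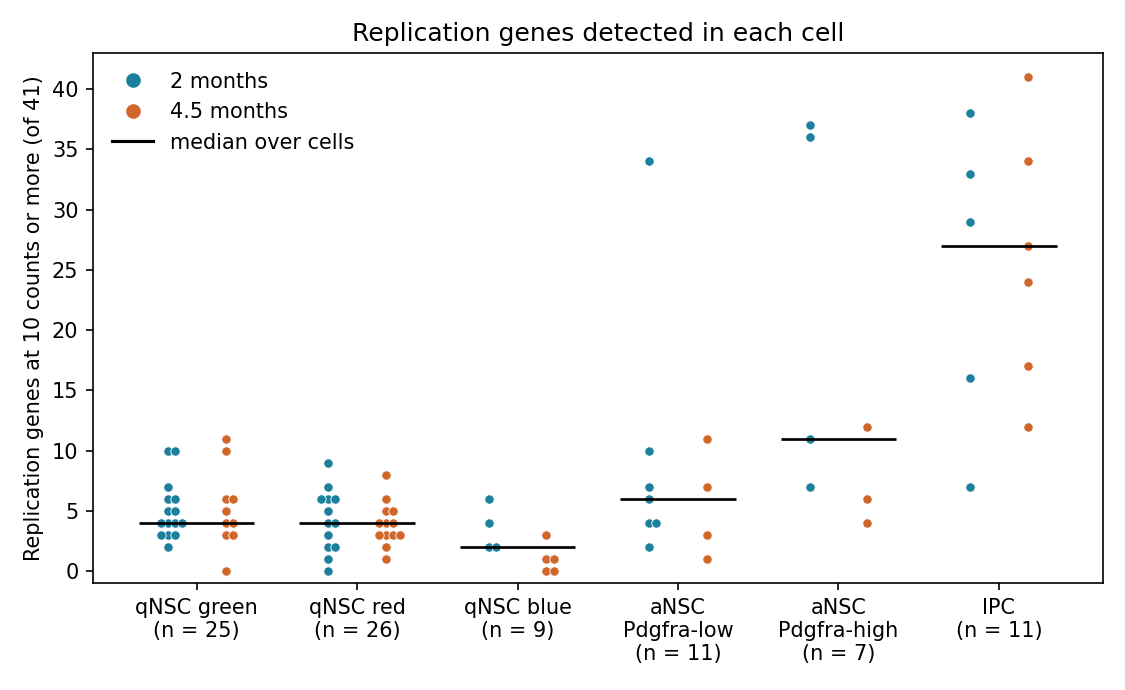
Number of the 41 replication genes at 10 counts or more (vertical axis) in each of the 89 cells, by class, colour and Pdgfra level, with 1 point per cell coloured by age and a bar at the median over cells. All 60 qNSC lie at 11 or below, while 7 of 11 IPC and 3 of 18 aNSC lie at 24 or above.

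The 10 cells above the gap were 7 IPC, 3 of them from 2 months and 4 from 4.5 months, together with 1 Pdgfra-low and 2 Pdgfra-high aNSC, all 3 from 2 months. None of the 60 qNSC was among them, which allows a share of up to 5% by the limit of 3 cells used for counts of 0, and up to 5.96% by the exact interval. The gap was found in these same cells, and both limits count cells, not animals. The genes took 0.0713% of a cell's counts in the median qNSC, 0.112% in the median Pdgfra-low aNSC, 0.188% in the median Pdgfra-high aNSC and 0.983% in the median IPC. After every cell was thinned to 445311 counts, which left 80 cells, the median stayed at 4 genes in qNSC and was 5.5 in Pdgfra-low aNSC, 10.0 in Pdgfra-high aNSC and 25.5 in IPC. Cells with more genes detected overall also had a higher mean log2(CPM + 1) of these genes (Pearson r = 0.53 over 89 cells, and 0.50 within the 60 qNSC). These values share each cell's library and class.

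Detection in qNSC split the genes in a way that follows their steps only in part. In 0 of 60 qNSC did Orc1, Cdc6, Cdt1, Gmnn, Mcm5, Mcm10, Pole, Ccne2 or Uhrf1 reach 10 counts, with the same limits for each. These 9 genes include the loaders Cdc6 and Cdt1 and their inhibitor Gmnn, but also a helicase subunit, a polymerase and a cyclin. The clamp gene Pcna, by contrast, reached 10 counts in 27 of 60 qNSC, or 45% (95% interval 32.1 to 58.4%), and Slbp in 21. In IPC all 41 genes reached 10 counts in at least 1 cell and 31 of them in at least 6 of the 11 cells.

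Promoter sequences are shown because E2F factors are known to induce many of these genes. RefSeq promoter windows (GRCm38.p6, 250 bases before to 50 after the first transcribed base, 300 in all) were found for 34 of the 41 genes, and not for Gmnn, Rfc2, Mcm4, Pole, Gins2, Ccne2 and Gins1. The windows were searched on both strands for 4 E2F-type words, TTTCCCGC, TTTGGCGC, TTTCGCGC and TTTGCCGC. Orc2, Mcm7, Fen1, Lig1 and Uhrf1 had more than 1 window, and a gene was counted if any of its windows held a word. At least 1 word occurred in 13 of the 34 genes, or 38.2%, against 704 of all 27025 genes with a window, or 2.61%. The 13 genes were Cdc6, Cdt1, Lig1, Mcm3, Mcm5, Mcm6, Mcm7, Orc1, Pola1, Pold1, Pold3, Rfc3 and Uhrf1. Of these, Lig1, Mcm7 and Uhrf1 also had a window with no match. Of the 9 genes that reached 10 counts in no qNSC, 6 had a window and 5 of these a match, against 8 of the 28 other genes with a window. A match describes the letters only, and the share of all genes was not matched for base content. Genes without a match, among them Pcna, Mcm2, Rrm2, Tyms, Ccne1 and E2f1, were not searched for other words or beyond the window. Stretches of 30 bases around a match follow, 5′ to 3′ on the gene's strand, with the matched letters in capitals, first for those 5 genes and then for 3 helicase genes that qNSC held at 10 counts.
Orc1 (chr4:108579416-108579445, plus strand): ttcggttagtgGCGCGAAAagttttctcct
Cdc6 (chr11:98908002-98908031, plus strand): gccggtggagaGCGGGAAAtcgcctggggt
Cdt1 (chr8:122568035-122568064, plus strand): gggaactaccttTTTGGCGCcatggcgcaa
Mcm5 (chr8:75109345-75109374, plus strand): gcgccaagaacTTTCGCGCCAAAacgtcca
Uhrf1 (chr17:56304117-56304146, plus strand): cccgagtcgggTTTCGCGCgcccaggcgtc
Mcm3 (chr1:20820275-20820304, minus strand): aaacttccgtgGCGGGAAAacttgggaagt
Mcm6 (chr1:128359797-128359826, minus strand): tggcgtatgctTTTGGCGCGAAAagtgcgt
Mcm7 (chr5:138172030-138172059, minus strand): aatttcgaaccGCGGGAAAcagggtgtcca

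In Mcm5 and Mcm6 a pair of matches overlaps on opposite strands, which gives the longer run of capitals. Counted from 0 at the first transcribed base, with upstream positions negative, the matches of Mcm6 begin at -110, -106 and -47, those of Mcm5 at -153 and -149, and those of Orc1, Cdc6 and Uhrf1 at -27, -138 and -185. The match of Cdt1 lies downstream of its start, at 32. Slbp, the gene detected most widely in IPC, had no such word in its window, and the 250 bases before its start are printed beside those of Mcm6 to show both kinds.
Mcm6 (chr1:128359706-128359955, minus strand): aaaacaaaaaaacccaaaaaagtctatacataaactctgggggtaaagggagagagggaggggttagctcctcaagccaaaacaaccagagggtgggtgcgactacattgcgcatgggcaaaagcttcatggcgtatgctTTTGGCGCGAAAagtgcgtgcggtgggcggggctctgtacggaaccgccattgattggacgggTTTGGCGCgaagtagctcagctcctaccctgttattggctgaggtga
Slbp (chr5:33652575-33652824, minus strand): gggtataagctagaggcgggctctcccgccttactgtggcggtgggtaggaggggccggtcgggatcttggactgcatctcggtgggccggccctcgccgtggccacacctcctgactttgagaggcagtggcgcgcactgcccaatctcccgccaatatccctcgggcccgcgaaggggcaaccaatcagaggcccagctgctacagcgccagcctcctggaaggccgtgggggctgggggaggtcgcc

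A CCAAT box (CCAAT or its reverse complement ATTGG) occurred in 22 of the 34 genes with a window, or 64.7%, against 41.1% of all genes. Slbp held 3 such boxes and Mcm6 2. The cell cycle homology letters TTTGAA or TTCGAA, on either strand, occurred in 5 of the 34 genes, or 14.7%, against 21.7% of all genes.

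Among the licensing genes, those of the helicase ring were read in most IPC. Mcm6 (chr1:128331590-128359664), a ring subunit, ran from 0 to 610 counts in qNSC with a median of 0, from 0 to 1193 in Pdgfra-low aNSC with a median of 0, from 0 to 1479 in Pdgfra-high aNSC with a median of 0, and from 0 to 2241 in IPC with a median of 549. It reached 10 counts in 3 of 60 qNSC, 4 of 11 Pdgfra-low aNSC, 3 of 7 Pdgfra-high aNSC and 9 of 11 IPC, so the IPC were mostly positive but their counts overlapped those of single cells in every class. Its mean log2(CPM + 1) was 0.52 ± 1.76 (SD, n = 60) in qNSC, 3.44 ± 4.52 (n = 11) in Pdgfra-low aNSC, 4.05 ± 5.11 (n = 7) in Pdgfra-high aNSC and 8.21 ± 3.85 (n = 11) in IPC. Summed CPM was 906 (888 to 925) in IPC and 22.7 (21.5 to 24) in qNSC, 39.9-fold apart.

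Mcm7 (chr5:138164583-138172422), another ring subunit, was the licensing gene seen in most aNSC. Median counts were 0 in qNSC (highest 703), 25 in Pdgfra-low aNSC (highest 700), 193 in Pdgfra-high aNSC (highest 880) and 314 in IPC (highest 1005), with a lowest value of 0 in every class. The gene reached 10 counts in 5 of 60 qNSC, 6 of 11 Pdgfra-low aNSC, 5 of 7 Pdgfra-high aNSC and 7 of 11 IPC, so that its detection hardly separated aNSC from IPC. Mean log2(CPM + 1) was 0.70 ± 2.30 in qNSC, 4.23 ± 4.22 in Pdgfra-low aNSC, 5.70 ± 4.08 in Pdgfra-high aNSC and 6.00 ± 4.63 in IPC (SD, n = 60, 11, 7 and 11 cells). Without the 5 aNSC and IPC cells under 500000 counts, the IPC mean was 0.08 below that of Pdgfra-low aNSC, a difference of -0.08 in place of 1.76. The Mcm7 exons overlap those of Ap4m1, Cops6, Mir25 and Mir93 and the library kit does not keep the strand, so reads from these genes could be shared.

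The other ring subunits had lower shares of positive qNSC than of positive IPC. At 10 counts, Mcm2 was found in 2 of 60 qNSC and 9 of 11 IPC, Mcm3 in 5 and 9, Mcm4 in 7 and 7, and Mcm5 in 0 and 6. In Pdgfra-low aNSC Mcm4 stayed at 9 counts or below in all 11 cells. Among the origin recognition genes the pattern was flatter. Orc2, for example, reached 10 counts in 15 of 60 qNSC, 2 of 11 Pdgfra-low aNSC and 8 of 11 IPC, while Orc6 did so in 16, 3 and 6, and Orc1, the subunit known to be made in step with the cycle, in 0, 1 and 1, with highest counts of 19 and 128 in the last pair.

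The loader Cdt1 (chr8:122568015-122573554) was near 0 outside a few cells. Its highest count was 2 in qNSC, 139 in Pdgfra-low aNSC, 332 in Pdgfra-high aNSC and 416 in IPC, with medians of 0, 0, 0 and 17. It reached 10 counts in 1 of 11 Pdgfra-low aNSC, 2 of 7 Pdgfra-high aNSC and 6 of 11 IPC. Gmnn (chr13:24751845-24761923) encodes geminin, the protein that blocks Cdt1 once S phase has begun, and gave the same number of positive cells in each class. Its highest counts were 2, 94, 346 and 292 in the same order of classes, with an IPC median of 43. Cdc6 reached 10 counts in 0 of 60 qNSC, 1 of 11 Pdgfra-low aNSC, 2 of 7 Pdgfra-high aNSC and 5 of 11 IPC.

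The 4 genes that activate the loaded helicase were each positive in 3 to 6 of the 11 IPC. Gins2 (chr8:120578633-120589304), a GINS subunit, ran from 0 to 256 counts in qNSC, 0 to 112 in Pdgfra-low aNSC, 0 to 289 in Pdgfra-high aNSC and 0 to 256 in IPC, with a median of 0 in every class. It reached 10 counts in 9 of 60 qNSC, 2 of 11 Pdgfra-low aNSC, 3 of 7 Pdgfra-high aNSC and 4 of 11 IPC, so no class held it in most cells. Gins1 (chr2:150905400-150931280), its partner subunit, ran from 0 to 87 counts in qNSC, 0 to 59 in Pdgfra-low aNSC and 0 to 269 in IPC, where the median was 66. No read of Gins1 was found in any of the 7 Pdgfra-high aNSC, which allows up to 0.410 CPM in their sum by counting of reads only. Mcm10 reached 10 counts in 3 of 11 IPC and Cdc45 in 4 of 11, against 0 and 1 of 60 qNSC.

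Of the polymerase genes, the primase subunit Prim1 and the polymerase delta subunit Pold3 were also read in many aNSC and some qNSC. Prim1 (chr10:128015168-128030037) makes the RNA primers and ran from 0 to 402 counts in qNSC, 0 to 163 in Pdgfra-low aNSC, 0 to 497 in Pdgfra-high aNSC and 0 to 669 in IPC, with medians of 0, 0, 128 and 202. Its mean log2(CPM + 1) was 1.23 ± 2.66, 1.39 ± 3.10, 4.70 ± 4.49 and 5.56 ± 4.44 in the same order (SD, n = 60, 11, 7 and 11 cells). Both aNSC subsets thus differ in Prim1 by 3.31 while Pdgfra-low aNSC and qNSC lie 0.17 apart.

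Pold3 (chr7:100082111-100121565) ran from 0 to 368 counts in qNSC, 0 to 527 in Pdgfra-low aNSC, 0 to 382 in Pdgfra-high aNSC and 0 to 371 in IPC, with medians of 0, 0, 191 and 103. It reached 10 counts in 11 of 60 qNSC, 3 of 11 Pdgfra-low aNSC, 5 of 7 Pdgfra-high aNSC and 6 of 11 IPC. Its highest value belongs to a Pdgfra-low aNSC, the 2-month cell 3, which also held 5 of 6 mural and 3 of 6 endothelial markers, whose part in the value was not tested. Pola1 and Pold1, catalytic subunits of polymerases alpha and delta, reached 10 counts in 7 and 5 of 11 IPC and in 1 and 2 of 60 qNSC. Pole, of polymerase epsilon, did so in 4 of 11 IPC, 2 of 7 Pdgfra-high aNSC and no other cell.

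The clamp gene Pcna (chr2:132249162-132253314) had the highest mean TPM, the scale corrected for gene length, of the 41 genes in each of the 4 classes. Mean TPM was 142 in qNSC (0 to 867), 327 in Pdgfra-low aNSC (0 to 2390), 1056 in Pdgfra-high aNSC (0 to 3720) and 934 in IPC (4.48 to 3020). Counts had medians of 1.5, 5, 138 and 249 in these classes and highest values of 738, 1380, 2131 and 1911, so single cells of every class overlap. Mean log2(CPM + 1) was 3.56 ± 3.75, 3.96 ± 4.24, 6.56 ± 4.51 and 8.26 ± 2.49 (SD, n = 60, 11, 7 and 11 cells). On this scale the means are ordered as listed, but those of the qNSC and the Pdgfra-low aNSC lie 0.40 apart, far within the spread over cells.

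Rfc2 (chr5:134581366-134601805), a subunit of the complex that loads the clamp, was the gene most often detected in Pdgfra-low aNSC. It reached 10 counts in 9 of these 11 cells, or 81.8% (48.2 to 97.7%), in 15 of 60 qNSC, or 25% (14.7 to 37.9%), in 3 of 7 Pdgfra-high aNSC and in 10 of 11 IPC. Many of the positive Pdgfra-low cells were low, however, with a class median of 25 counts and a highest value of 620, against a median of 380 and a highest value of 1072 in IPC. Mean log2(CPM + 1) was 1.82 ± 2.98 in qNSC, 5.27 ± 3.06 in Pdgfra-low aNSC, 3.70 ± 4.34 in Pdgfra-high aNSC and 7.29 ± 2.95 in IPC (SD, n = 60, 11, 7 and 11 cells). Rfc2 exons overlap those of Lat2.

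The remaining loader subunits behaved unevenly. Rfc3 reached 10 counts in 9 of 11 IPC, 3 of 7 Pdgfra-high aNSC, 0 of 11 Pdgfra-low aNSC and 6 of 60 qNSC, and Rfc4 in 8, 2, 1 and 4. For Rfc1 the same counts were 6, 4, 4 and 13, and for Rfc5 6, 2, 4 and 4. The single-strand binding genes Rpa1 and Rpa2 reached 10 counts in 10 of 11 IPC each, and in 19 and 14 of 60 qNSC, while Rpa3 did so in 8 IPC and 10 qNSC. Among genes that join Okazaki fragments, the flap nuclease gene Fen1 was positive in 6 of 11 IPC and 1 of 60 qNSC, and the ligase gene Lig1 in 9 and 3.

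The subunits of ribonucleotide reductase, the enzyme that makes deoxynucleotides, gave some of the widest class differences. Rrm2 (chr12:24708241-24714146), the small subunit, ran from 0 to 183 counts in qNSC, 0 to 323 in Pdgfra-low aNSC, 0 to 454 in Pdgfra-high aNSC and 0 to 1709 in IPC, with medians of 0, 0, 0 and 443. It reached 10 counts in 10 of 11 IPC and 4 of 60 qNSC. Mean log2(CPM + 1) was 0.53 ± 1.88, 1.84 ± 3.31, 2.58 ± 4.40 and 8.24 ± 3.0 (SD, n = 60, 11, 7 and 11 cells), and the summed CPM of IPC was 65.5-fold that of qNSC.

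Rrm1 (chr7:102441695-102469771), the large subunit, ran from 0 to 684 counts in qNSC, 0 to 533 in Pdgfra-low aNSC, 0 to 1199 in Pdgfra-high aNSC and 0 to 1895 in IPC, with medians of 0, 0, 0 and 422. It was positive at 10 counts in 7 of 11 IPC and 8 of 60 qNSC. Both subunits were therefore read in most IPC, Rrm2 in 3 cells more than Rrm1. Tyms, which makes thymidylate, reached 10 counts in 5 of 11 IPC, 4 of 7 Pdgfra-high aNSC, 1 of 11 Pdgfra-low aNSC and 9 of 60 qNSC.

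Slbp (chr5:33634952-33652574), which binds the stem-loop of histone messages and is needed for histone supply in S phase, was the only gene of the 41 at 10 counts in all 11 IPC. Its counts there ran from 157 to 1825 with a median of 514, against 0 to 805 with a median of 0.5 in qNSC, 0 to 344 with a median of 1 in Pdgfra-low aNSC and 0 to 712 with a median of 254 in Pdgfra-high aNSC. Mean log2(CPM + 1) was 9.28 ± 1.14 in IPC, the smallest spread over IPC cells of the 41 genes, and 2.83 ± 3.48, 3.51 ± 3.76 and 6.11 ± 3.99 in the other 3 classes. Slbp was thus present even in IPC that lacked most other genes of the list.

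The cyclin gene Ccne1 (chr7:38097984-38107534), whose product drives entry into S phase, reached 10 counts outside the IPC in 1 qNSC and 3 aNSC. Its highest counts were 110 in qNSC, 147 in Pdgfra-low aNSC, 363 in Pdgfra-high aNSC and 651 in IPC, with medians of 0, 0, 0 and 141. The aNSC were 1 Pdgfra-low and 2 Pdgfra-high cells, and 8 of 11 IPC were positive. E2f1 (chr2:154559407-154569892), a transcription factor of the G1/S step, was lower, with highest counts of 193, 190, 133 and 627 and medians of 0, 0, 0 and 38. It was positive in 3 of 60 qNSC, 1 of 11 Pdgfra-low aNSC, 2 of 7 Pdgfra-high aNSC and 6 of 11 IPC. Ccne2 was positive in 4 of 11 IPC, the checkpoint kinase gene Chek1 in 6 and the DNA methylation factor gene Uhrf1 in 4. Uhrf1 had no read in any qNSC. Taking the floor of 3 counts over the whole qNSC class, its summed CPM in IPC was 3201-fold higher. That floor counts reads, not molecules, so the ratio is no firm lower limit.

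**Figure D2:**
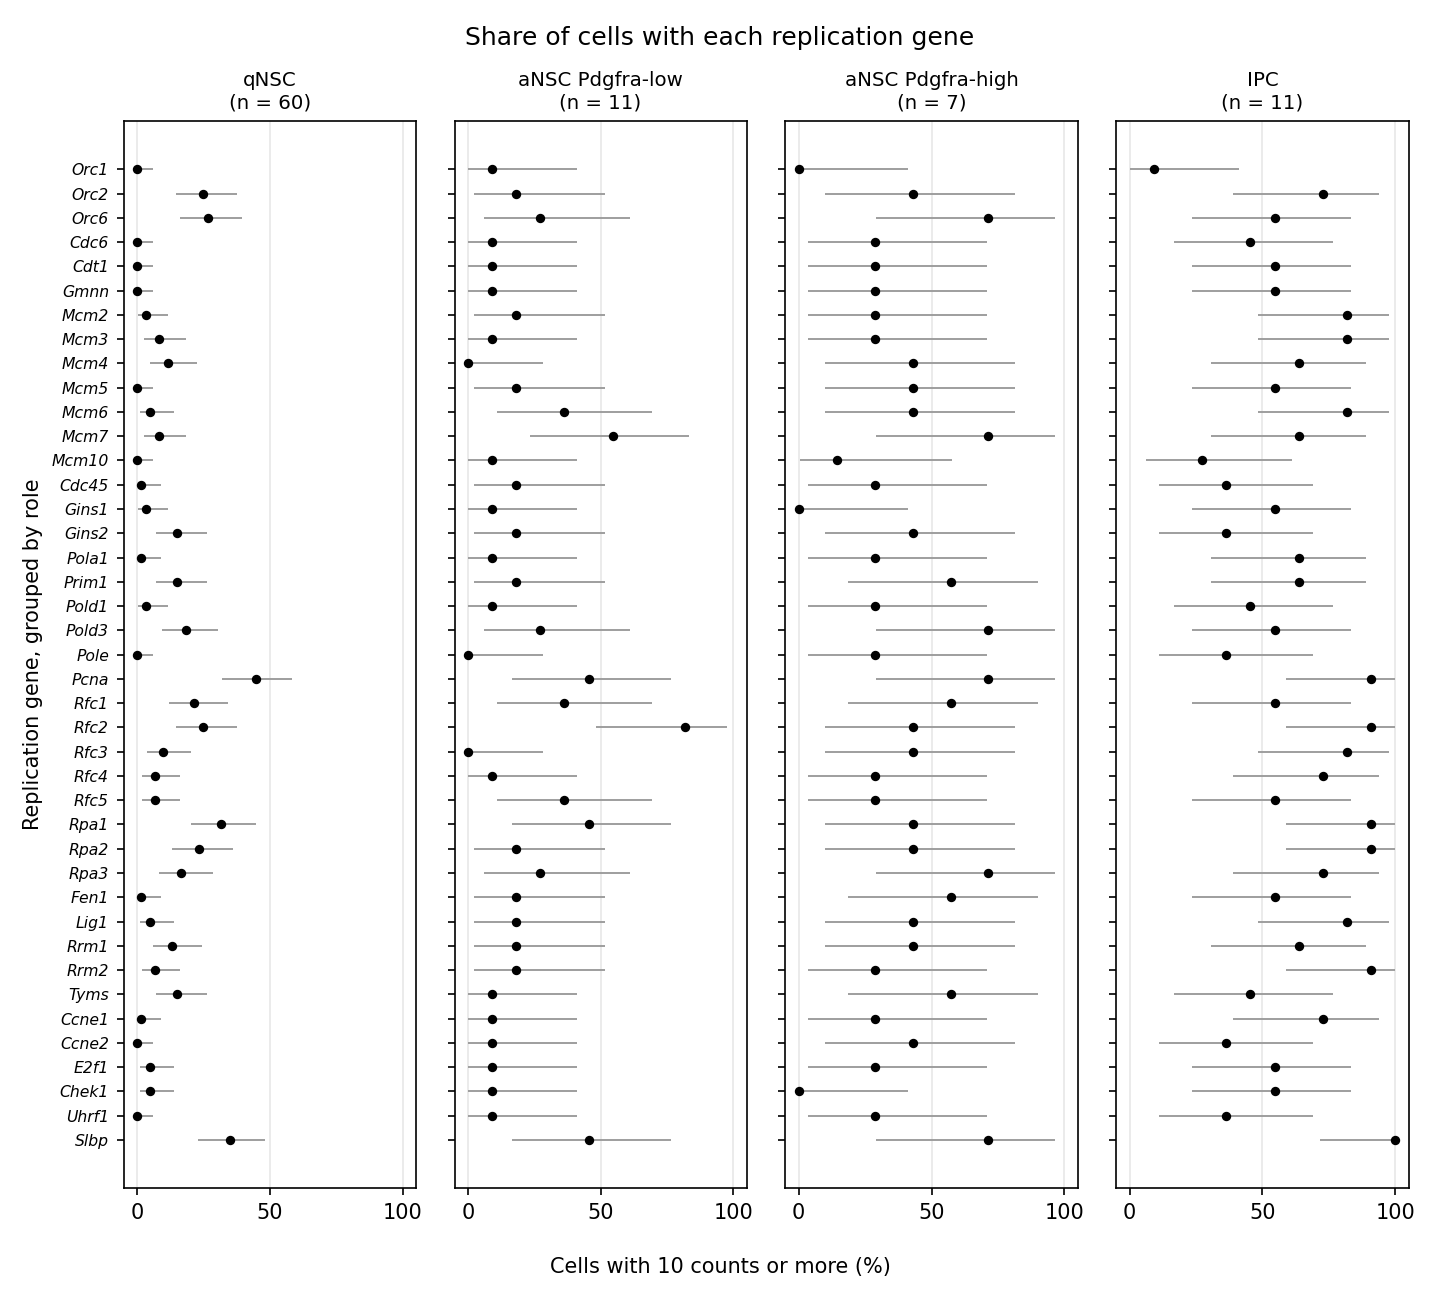
Share of cells in percent (horizontal axis) with 10 counts or more of each of the 41 genes, ordered by role, in 4 panels for qNSC (n = 60), Pdgfra-low aNSC (n = 11), Pdgfra-high aNSC (n = 7) and IPC (n = 11). Points are shares and lines exact 95% Clopper-Pearson intervals, which cover counting of cells only. Slbp reaches 100% in IPC and Pcna 45% in qNSC, the highest share of each class.

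Cells are named below by class, age and the cell number in their label. Viewed one by one, the IPC did not form a uniform class. From fewest to most, they held 7, 12, 16, 17, 24, 27, 29, 33, 34, 38 and 41 of the genes at 10 counts. The 2-month cell 113, at 7, had 0 counts of all ring genes but Mcm4 and Mcm6, at 2 each, and held 5 of 6 neuroblast markers, with 909 counts of Dcx. The 4.5-month cell 145, at the other end, held all 41, from 22 counts of Rpa3 to 1444 of Pcna, and the genes took 2.54% of its counts. Their part was 2.41% in the 2-month cell 9, which held 38 genes and the highest counts of Mcm6, Mcm7, Pcna, Rrm1, Ccne1 and E2f1 among IPC.

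Mitosis genes divided the 7 IPC above the gap. Of 28 such genes, the 4.5-month cell 34 and the 2-month cell 91 held all 28 at 10 counts and the 4.5-month cell 187 held 27. The cells 9 and 145 held 16 and 15, and the 4.5-month cell 173 and the 2-month cell 47 held 0 and 1. Cells with a like number of replication genes thus stood at opposite ends for mitosis genes. The depth of cell 47, 312947 counts, was the lowest of the IPC, and that of cell 173 was 644374.

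The cells 34 and 173 show that contrast most clearly, with 24 and 27 of the replication genes. Cell 34 had 0 counts of Cdc6, Cdt1, Ccne1 and E2f1 and 1 of Mcm7, but 144 of Gmnn, 4140 of the mitotic cyclin gene Ccnb1 and 1140 of Mki67. Cell 173 had 273 counts of Cdc6, 304 of Cdt1 and 124 of Ccne1, but 1 of Gmnn and 0 of Ccnb1 and Mki67. Slbp was high in both, at 514 and 1825 counts. The totals of 24 and 27 were thus made up of different licensing and control genes.

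**Figure D3:**
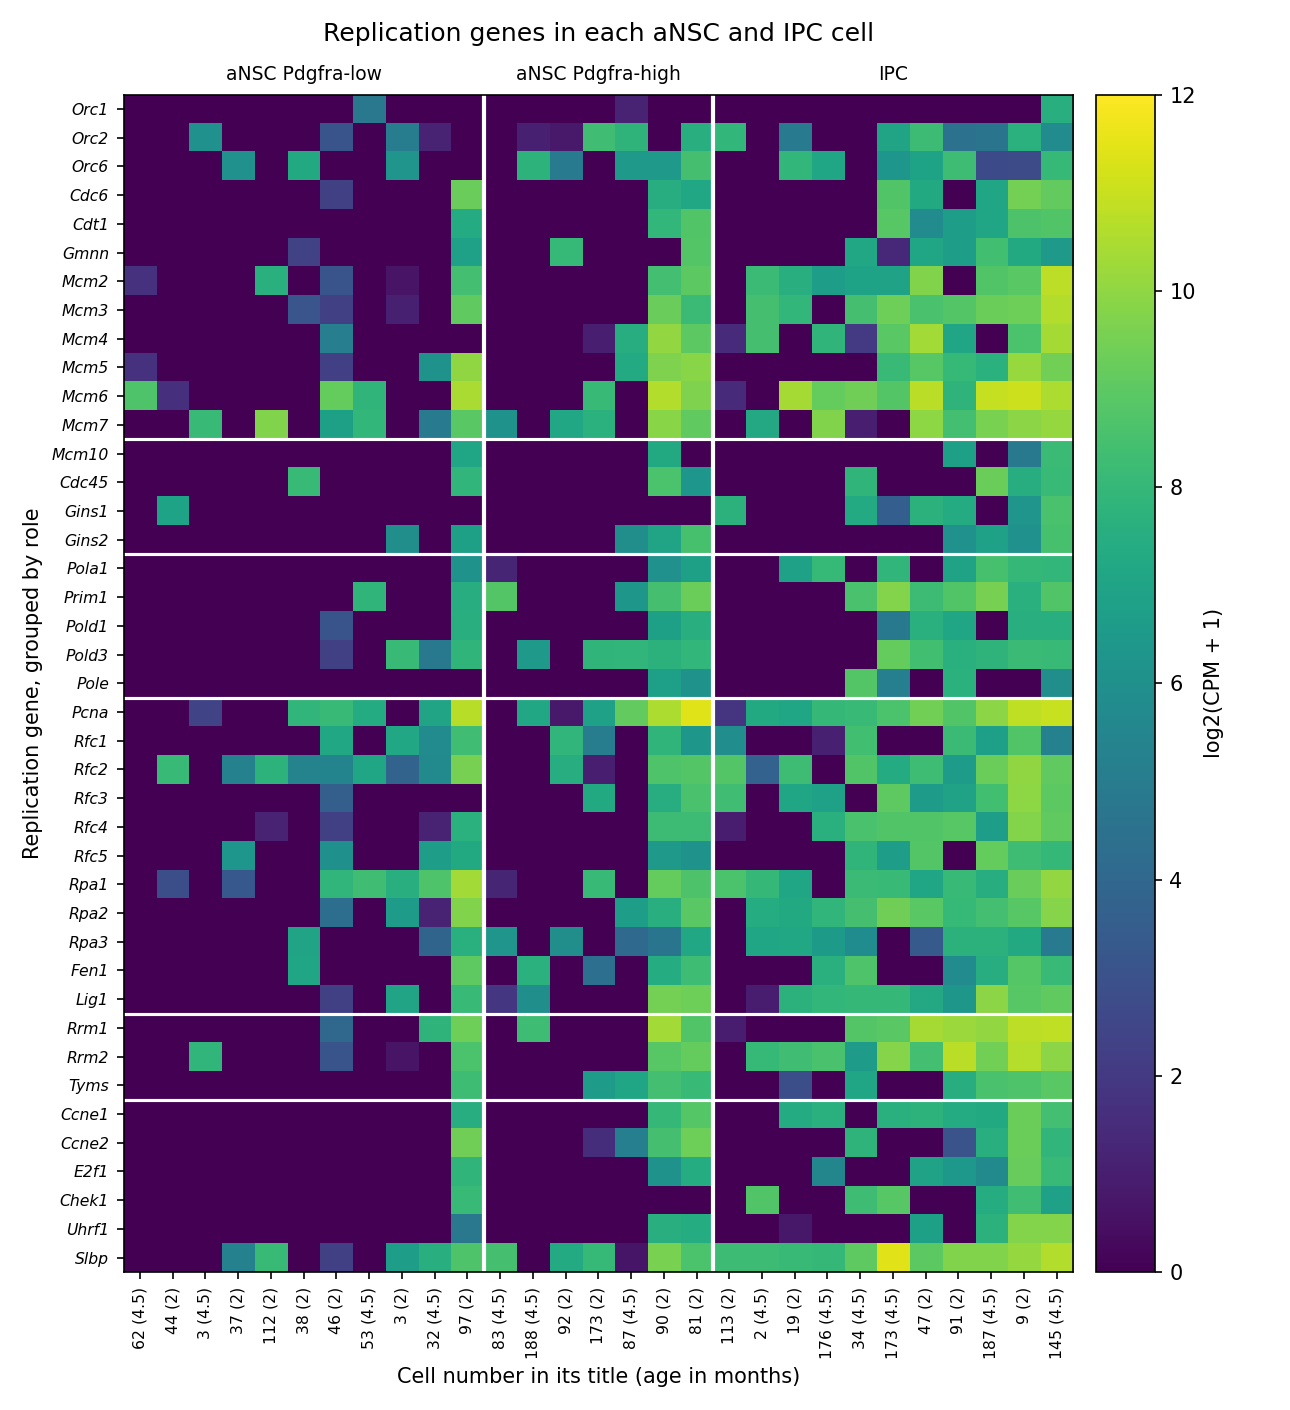
log2(CPM + 1) of the 41 genes (rows, grouped by role) in each of the 29 aNSC and IPC cells (columns, named by the number in the title and the age in months, ordered within each group by the number of genes at 10 counts). In each aNSC group the columns at the right, cell 97 and cells 90 and 81, stand apart from the dark columns beside them, while the IPC brighten step by step.

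Among aNSC the same genes were carried by 3 cells of 2 months. The Pdgfra-low cell 97 held 34 of the 41 genes and the other 10 Pdgfra-low cells 1 to 11. The Pdgfra-high cells 90 and 81 held 36 and 37 and the other 5 Pdgfra-high cells 4 to 12. In each of the 3 cells Ccne1, E2f1, Cdt1 and Cdc6 were all above 10 counts, which was so in no other aNSC. Their Cdt1 counts were 139, 230 and 332, and it was 0 in the other 15.

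These 3 aNSC differed in their other markers. Cell 97 had 1891 counts of Hopx, 7 of 10 quiescent stem cell markers and 1 of 8 oligodendrocyte precursor markers at 10 counts. Cells 90 and 81 had 0 counts of Hopx and 7 and 8 of the 8 precursor markers, of which Pdgfra was set by the split. Mitosis genes at 10 counts numbered 11, 10 and 11 of 28, with 0, 1 and 0 counts of Ccnb1 and 0, 396 and 6 of Mki67. In the remaining 15 aNSC at most 1 of the 28 mitosis genes reached 10 counts, and in the 60 qNSC at most 2.

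**Figure D4:**
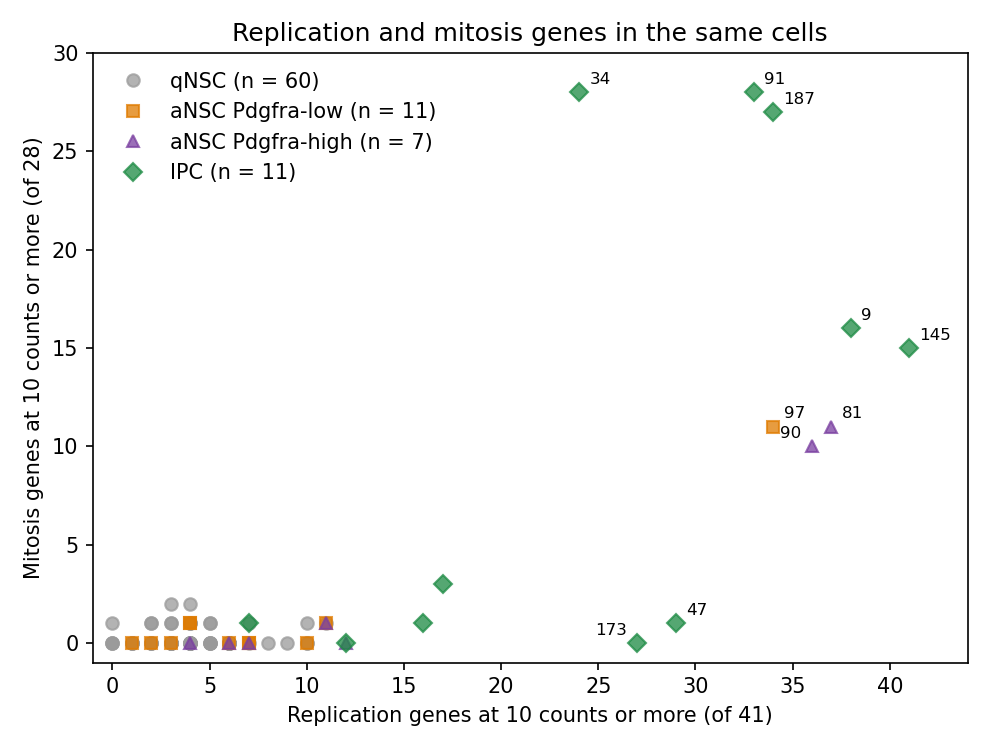
Replication genes (horizontal axis, of 41) against mitosis genes (vertical axis, of 28) at 10 counts or more in the same cell, 1 point per cell by class, with the number in the title beside the 10 cells at 24 replication genes or more. Cells 173 and 47 lie at 27 and 29 replication genes with at most 1 mitosis gene, cells 34, 91 and 187 at 27 or 28 mitosis genes, and the others between.

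Between classes, the number of genes past the size limit depended on whether these few cells were counted. From qNSC to Pdgfra-low aNSC, 11 of 41 genes were higher and 0 lower, where 14.7% of the 11750 genes read in at least 5 cells were higher and 3.59% lower. The 11 were Cdc6, Mcm2, Mcm5, Mcm6, Mcm7, Cdc45, Rfc2, Rpa1, Fen1, Lig1 and Rrm2, and the median difference in mean log2(CPM + 1) was 0.65 against 0.40 for all genes tested. Without cell 97, left out after its values were seen as were the other cells below, 3 genes were higher and 1 lower, with 14.5% of all genes higher.

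From qNSC to Pdgfra-high aNSC, 35 genes were higher and 0 lower, with 25.9% of all genes higher and 8.53% lower, and the median difference was 2.14 against 0.63. Those not past the limit were Orc1, Gins1, Rfc1, Rfc5, Rpa2 and Chek1. Without cells 90 and 81 the number was 11, with 24.8% of all genes higher, and Rfc2, Rrm2, Ccne1, E2f1 and Cdt1 were then below the qNSC mean, by -0.13, -0.53, -0.13, -0.41 and -0.02. Between the aNSC subsets, 20 genes were higher in Pdgfra-high cells and 0 lower, with 19.7% of all genes higher and medians of 1.57 and 0.15. Without cell 97 the count was 33, with 20.7% of all genes higher. Without cells 90 and 81 it was 5 higher and 10 lower, with 18.9% of all genes higher and a median of -0.30, so its direction rests on which of these 3 cells are included.

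The IPC stood above the Pdgfra-low aNSC and the qNSC. They were not compared with the Pdgfra-high aNSC by the size limit. From Pdgfra-low aNSC to IPC, 36 of 41 genes were higher and 0 lower, with 17.7% of all genes higher, and the median difference was 3.21 against 0.00. Of the 5 that missed the limit, Orc1, Pold3, Rfc1, Rpa1 and Ccne2, all had higher IPC means. The roles with the widest median difference were nucleotide supply at 4.53 (3 genes), clamp and Okazaki genes at 3.57 (11 genes) and control genes at 3.39 (6 genes), and that with the narrowest was helicase activation at 1.44 (4 genes). From qNSC to IPC, 39 genes were higher and 0 lower, with 25.9% of all genes higher, the exceptions being Orc1 and Orc2. The widest differences were those of Rrm2, 7.70, and Mcm6, 7.69, and the narrowest that of Orc1, 0.58. Leaving out the IPC with fewest genes, cell 113, gave 37 and 39, with 18.1% and 25.9% of all genes higher.

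Among qNSC the colours differed little. Between green and red cells 2 genes, Pold3 and Rfc4, were higher in green and 1, Rrm2, was lower, with 7.34% of all genes higher and 4.2% lower. Pold3 ran from 0 to 368 counts in 25 green cells, 8 of them at 10 counts, and from 0 to 104 in 26 red cells, 3 of them at 10 counts. Rfc4 was at 10 counts in 4 green cells and unread in red and blue. Rrm2 was at 10 counts in 4 red cells and at 1 at most in green. These few positive cells leave the medians of all 3 genes at 0 in both colours.

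Blue cells held fewer of the genes, 0 to 6 with a median of 2 (n = 9), against 0 to 11 with a median of 4 in green and red together (n = 51). Against the latter, 8 genes were lower in blue and 0 higher, with 16.2% of all genes lower, and the median difference was -0.28 against -0.35 for all genes. The 8 were Orc2, Orc6, Gins2, Pold3, Rfc2, Rpa1, Rpa2 and Rpa3. Blue cells were also shallower, with a median of 793971 counts against 1004305, and 3 of 9 were under 500000. After thinning, which left 6 blue cells, 9 genes were lower and 4 higher, with 16.6% of all genes lower. Without cells under 500000 counts 6 were lower and 5 higher, with 16.7% of all genes lower. The 8 of 41 genes lower in blue stand near the background, and the part of depth in the difference was not tested.

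Between ages, cells of 2 and 4.5 months differ in more than age. Y-linked genes reached 10 counts in 38 of 48 cells of 2 months and 0 of 41 of 4.5 months, and Xist or Tsix in 0 and 37, so age cannot be told apart from sex or from the animals used. In qNSC, 1 gene, Prim1, was higher at 4.5 months and 1, Rfc3, was lower, with 2.38% of all genes higher and 5.22% lower. Prim1 reached 10 counts in 2 of 32 cells of 2 months and 7 of 28 of 4.5 months, with highest counts of 402 and 275. Rfc3 did so in 6 and 0 cells, with highest counts of 361 and 3. Pcna, the most detected gene, was positive in 15 of 32 and 12 of 28 cells, with means of 3.66 ± 3.92 and 3.45 ± 3.62, a difference far below the spread over cells.

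Within the green cells (15 and 10) Chek1 was higher at 4.5 months and Mcm6 and Rfc3 were lower, with 8.81% of all genes higher and 11.1% lower. Within the red cells (13 each) Mcm3, Prim1, Rfc2 and Rpa1 were higher and Orc6, Rfc5 and Tyms lower, with 7.43% of all genes higher and 10.0% lower. Prim1 was unread in the 13 red cells of 2 months and at 10 counts in 4 of the 13 of 4.5 months. In the 9 blue cells, the 4 of 2 months held 2, 2, 4 and 6 of the genes and the 5 of 4.5 months held 0, 0, 1, 1 and 3. The last 5 include all 3 blue cells under 500000 counts, and the part of depth was not tested.

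In aNSC the ages differed mainly through the 3 cells named above. Pdgfra-low cells of 2 months held 2, 4, 4, 6, 7, 10 and 34 of the genes and those of 4.5 months 1, 3, 7 and 11, which overlap apart from cell 97. At 4.5 months 24 genes were lower and 1, Orc1, was higher, with 22.5% of all genes lower and 18.2% higher. Without cell 97, 9 were lower and 6 higher, with 22.9% of all genes lower, so the 9 of 41 are near the background. Of the cells of 2 months 4 of 7, and of those of 4.5 months 0 of 4, were under 500000 counts.

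Pdgfra-high cells of 2 months held 7, 11, 36 and 37 and those of 4.5 months 4, 6 and 12. Of the genes 32 were lower at 4.5 months and 0 higher, with 27.7% of all genes lower and a median difference of -3.22. Without cells 90 and 81, 8 were lower and 10 higher among 2 and 3 cells, with 20.8% of all genes lower, so the 8 of 41 are near the background. With both aNSC subsets pooled, no aNSC of 4.5 months, of 7, was among the cells above the gap, against 3 of 11 of 2 months. By the limit of 3 cells, 0 of 7 allows a share of up to 42.9%. This limit counts cells, not animals, and the gap was found in these same cells.

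The numbers of genes in IPC of both ages overlapped. Those of 2 months held 7, 16, 29, 33 and 38 of the genes and those of 4.5 months 12, 17, 24, 27, 34 and 41. At 4.5 months 5 genes, Orc1, Cdc45, Prim1, Pole and Chek1, were higher and 5, Orc2, Orc6, Mcm5, Pold1 and E2f1, lower, with 13.4% of all genes higher and 21% lower. Chek1 differed most, at 0, 0, 0, 0 and 332 counts in the 5 cells of 2 months and from 0 to 480 with a median of 228 in the 6 of 4.5 months, so that the groups overlap. The split changed with the scaling, to 7 higher and 3 lower with TMMwsp library sizes, 6 and 3 on deposited TPM and 9 and 3 after thinning. Mcm6 showed no such difference, with means of 8.30 ± 4.04 (n = 5) and 8.14 ± 4.07 (n = 6).

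Across cells the genes were correlated in aNSC and IPC, and hardly in qNSC. In qNSC 9 of them reached 10 counts in no cell, and a cell held a median of 4. With so few detected, r in qNSC cannot show whether the genes vary together there. The median Pearson r between pairs of the 41 genes was 0.44 over all 89 cells, 0.53 over the 18 aNSC, 0.43 over the 11 IPC and -0.03 over the 60 qNSC, in which Uhrf1 has no spread. These values share each cell's library. Of the 18 aNSC, 3 lie above the gap, and their part in the aNSC values was not tested. Cdt1 (r = 0.92 with the mean of the other 40 over 89 cells), Mcm5 (0.88), Cdc6 (0.87) and Ccne1 (0.86) followed the rest most closely. Orc1 (0.26), Orc2 (0.28), Orc6 (0.33) and the clamp loader gene Rfc1 (0.40) did so least. The origin recognition genes thus lay below the helicase loaders Cdc6 and Cdt1, though Orc1 was read in only 5 of the 89 cells. The mean of the genes followed the mean of the 28 mitosis genes with r = 0.70 over all cells, 0.96 over aNSC, 0.48 over IPC and -0.08 over qNSC.

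Outside the list, the genes most like its mean over the 89 cells, among the 7185 read in at least 20% of cells, included Dnmt1 (r = 0.77), Rbbp8 (0.73), Syce2 (0.72), Ezh2 (0.71), Mn1 (0.69), A730008H23Rik (0.68), Hmgb2 (0.68), Hjurp (0.68) and Nasp (0.67). Dnmt1, the maintenance DNA methyltransferase, reached 10 counts in 3 of 60 qNSC, 2 of 11 Pdgfra-low aNSC, 2 of 7 Pdgfra-high aNSC and 8 of 11 IPC. Ezh2 did so in 3, 2, 3 and 11 cells of the same classes, and Mn1 in 0, 4, 1 and 9.

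Other genes of the same processes gave the following counts. Of 65 further replication and S phase genes, 59 were read in at least 5 cells. From qNSC to Pdgfra-low aNSC 20 of these were higher and 0 lower, with 14.7% of all genes higher and 3.59% lower. From Pdgfra-low aNSC to IPC 35 were higher and 1 lower, with 17.7% of all genes higher and 16.9% lower. In IPC against qNSC 49 were higher and 1 lower, with 25.9% of all genes higher and 10.8% lower. The Pdgfra-low aNSC with most replication genes held 41 of the 65 at 10 counts, against a class median of 11. These comparisons were not repeated without that cell, so its part in the 20 was not tested. Tipin, Pole4 and Cks1b had the highest mean TPM of that list. Tipin, of the fork protection complex, was at 10 counts in 15 of 60 qNSC, 5 of 11 Pdgfra-low aNSC, 5 of 7 Pdgfra-high aNSC and 9 of 11 IPC. Pole4 was at 10 counts in 31, 7, 5 and 10 cells and Cks1b in 4, 3, 2 and 8.

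Of the 28 mitosis genes 25 were read in at least 5 cells. Of these, 2 were higher in Pdgfra-low aNSC than in qNSC and 24 in IPC than in Pdgfra-low aNSC, with none lower in either. Of all genes 14.7% and 17.7% were higher in these comparisons, so the 2 of 25 are not above the background. Ccnb1 and Ube2c, with the highest TPM of that list, were at 10 counts in 4 of 11 IPC and in none of the other 78 cells. Of 27 G1 cyclins, kinases, inhibitors and E2F partners, 26 were read in at least 5 cells. From qNSC to Pdgfra-low aNSC 7 of these were higher and 1 lower, with 14.7% of all genes higher and 3.59% lower. From Pdgfra-low aNSC to IPC 11 were higher and 0 lower, with 17.7% of all genes higher and 16.9% lower. Cdk4, the G1 kinase gene, reached 10 counts in 28 of 60 qNSC, 10 of 11 Pdgfra-low aNSC, 7 of 7 Pdgfra-high aNSC and 11 of 11 IPC. Ccnd2 did so in 31, 10, 2 and 10 cells, and was thus read widely in Pdgfra-low aNSC, 10 of which held at most 11 replication genes.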

How the data were processed

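Each of the 89 samples is 1 sorted cell. The authors deposited gene-level estimated counts and TPM values; per the submitters' processing notes these came from STAR, RSEM and the mm10 build, with versions and settings not given in the sources used here. A groups table gives a class and a colour per cell. Of the deposited counts above 0, 4.44% were not whole numbers (tolerance 1e-06).

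Counts were divided by each cell's total to give CPM. Group values are means of log2(CPM + 1), summed CPM, and cells at 10 counts or more, with a floor of 3 counts over a group where a gene was unread. Genes read in at least 5 cells (11750, with all 41 members) gave the background shares. Python 3.11.15, pandas 2.3.3, scipy 1.17.1 and, for TMMwsp library sizes, edgeR 4.0.16 were used, and the comparison code was checked on simulated data. Positions are those of the GENCODE annotation of GRCm38. Exons of 9 members (Orc2, Orc6, Mcm7, Gins2, Rfc2, Rfc4, Rfc5, Fen1, Ccne2) overlap another gene, and reads carry no strand.

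All 41 members were named, with full values for the 2 of each role with the highest mean TPM and for Mcm7, Pcna, Ccne1, E2f1, Cdt1 and Gmnn. Of other lists the 3 genes with the highest mean TPM, and the 10 genes most like the members' mean, were named, except 1 that is not reported here; cells and other genes singled out were chosen after their values were seen. Members and lists were chosen with earlier results of these data known. Alternatives were TPM, TMMwsp sizes, thinning, a pseudocount of 10, other filters, a difference of 2, and leaving out cells. No doublet caller was run.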

Additional observations from a re-analysis of the deposited data

Results flagged for a closer look

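Among groups of 4 to 10 cells, 20 sets of values were looked at for a cell far from the others. The groups were of 1 class and age, except that blue qNSC and Pdgfra-high aNSC were also taken with both ages pooled. The sets thus overlap, and chance alone flags about 1 in 20 of them where values are normally distributed. Both that stood out belong to 1 cell, the Pdgfra-low aNSC cell 97 of 2 months. It held 34 of the 41 replication genes at 10 counts, and the next of the 7 cells held 10, a gap of 0.75 of the group's whole range where 0.568 is the critical value. Replication genes took 1.53% of its counts, and 0.159% in the next cell, a gap of 0.910 of the range.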

How the results depend on the processing

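No paired analysis was possible because the replicate numbers only name cells in accession order. Of 127 recomputed median differences of the genes, 1 reversed and the other 126 stayed within the SD over cells of their main value. A reversal was counted only where the main difference was at least 1, so a change of sign near 0 was not counted. The median number of genes per cell stayed within its SD over cells, an equally loose limit, in all 8. Percentages in brackets are the share of all tested genes past the limit in the same direction under the same setting. With genes read in 20% of cells only 24 of the 41 remain, so counts shrink. They were 7 higher for Pdgfra-low aNSC against qNSC (17.1%) and 21 for Pdgfra-high aNSC against qNSC (25.4%). For Pdgfra-high against Pdgfra-low there were 13 (18.1%), for IPC against Pdgfra-low 21 (18.8%) and for IPC against qNSC 23 (29.1%). With age 13, 19 and 2 were lower in Pdgfra-low aNSC, Pdgfra-high aNSC and IPC (24.4%, 28.4% and 21.9%). With a pseudocount of 10 the counts were 4 higher for Pdgfra-low aNSC against qNSC (7.0%), 0 for green against red (2.37%) and 3 lower for blue (6.94%). There were 0, 0, 10 and 2 lower with age in qNSC, green qNSC, Pdgfra-low aNSC and IPC (1.17%, 4.31%, 12.2% and 12.1%). With a difference of 2 the counts were 3 higher for Pdgfra-low aNSC against qNSC (5.51%) and 10 for Pdgfra-high against Pdgfra-low (11.1%). They were 0 higher for green against red (1.22%) and 1 lower for blue (4.58%). In qNSC, green qNSC, red qNSC, Pdgfra-low aNSC and IPC 0, 0, 1, 9 and 2 were lower with age (0.655%, 2.87%, 2.77%, 10.3% and 10.6%). For these the stricter limit by itself lowers counts.

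In IPC 3 genes, not 5, were lower with age on TPM, with TMMwsp sizes, after thinning and without cells under 500000 counts, with 8 higher in the last; in qNSC 2 were lower with TMMwsp sizes. Without the 6 cells with markers of another type, 1 gene was higher in green than red. The cause of these was not tested. TMMwsp sizes moved the median of all genes by at most -0.19, for Pdgfra-high aNSC against qNSC.

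Chosen after the data were seen, leaving out cell 97 gave 3 higher (14.5%) and 1 lower for Pdgfra-low aNSC against qNSC. For Pdgfra-high against Pdgfra-low it gave 33 higher (20.7%), and with age 9 lower (22.9%) and 6 higher. Leaving out cells 81 and 90 gave 11 higher (24.8%) for Pdgfra-high aNSC against qNSC. Against Pdgfra-low it gave 5 higher (18.9%) and 10 lower, and with age 8 lower (20.8%) and 10 higher. It reversed the median against Pdgfra-low to -0.30, Rfc2, Rrm2, Ccne1, E2f1 and Cdt1 against qNSC to -0.13, -0.53, -0.13, -0.41 and -0.0230, and Rrm1, Ccne1 and Cdt1 against Pdgfra-low to -0.27, -0.68 and -0.67. Mcm7 between Pdgfra-low aNSC and IPC reversed to -0.0798 without cells under 500000 counts. With 3 to 13 cells a group, 1 cell decides many values.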
